A study of Mus musculus with 6 samples.

Results

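The AP-1 and immediate early response genes are a set of 34 genes, out of 18193 genes that had a probe set with 1 gene symbol. They were chosen by name from the known early response to growth factors and stress, with earlier results of these data known. Counts set beside those of all genes are therefore descriptions. Each gene was read from its brightest probe set over the 6 arrays. The arrays carried RNA from colonic mucosa of C57BL/6 mice, 3 from samples labelled p38a-knockout (A, B and C) and 3 from samples labelled wild type (A, B and C). All samples were untreated, and the labels give intestinal epithelial cells as the cell type. The labels give no age, no Cre driver and no count of animals per sample, so a p-value here speaks only of the spread among these 6 samples, which could be technical. p38a is the kinase that Mapk14 encodes. Mapk14 had 6 probe sets, and only the brightest was read here. It gave 9.72, 9.91 and 9.73 on the knockout-labelled arrays and 9.31, 9.44 and 9.37 in wild type. That goes against the label if this probe set lies in the deleted part, whose position was not used here. The arrays are therefore called by their label throughout.

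Immediate early genes are switched on within minutes of a stimulus, without new protein synthesis, and their transcripts decay quickly. Many of their products are transcription factors. FOS and JUN proteins pair through leucine zippers to form AP-1, which binds DNA and acts on later genes. The promoters are driven in part by serum response factor at CArG boxes and by CREB and ATF proteins at cyclic AMP response elements, downstream of the ERK, JNK and p38 kinases. In gut epithelium these genes take part in growth, wound repair and inflammation, and in any tissue they respond to handling of the sample.

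Promoters of 6 of the genes are shown because they hold these elements. They were picked with the values of the genes known, so that low genes and others both appear. They run from 250 bases before the start of transcription to 50 bases after it, from RefSeq on GRCm38.p6, each 5′ to 3′ on the strand of its gene. Capitals mark CArG boxes, TGACGTCA (the full cyclic AMP response element), its part TGACG on either strand, and TGANTCA. In TGANTCA, N is any base, and only with C or G there is it the AP-1 element.
Zfp36, chr7:28379179-28379478, minus strand: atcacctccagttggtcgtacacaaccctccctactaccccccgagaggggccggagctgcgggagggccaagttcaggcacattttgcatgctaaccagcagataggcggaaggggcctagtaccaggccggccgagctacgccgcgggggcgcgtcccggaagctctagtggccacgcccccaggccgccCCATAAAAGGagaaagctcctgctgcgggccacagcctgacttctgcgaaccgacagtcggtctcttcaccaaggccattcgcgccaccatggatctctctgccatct
Srf, chr17:46556113-46556412, minus strand: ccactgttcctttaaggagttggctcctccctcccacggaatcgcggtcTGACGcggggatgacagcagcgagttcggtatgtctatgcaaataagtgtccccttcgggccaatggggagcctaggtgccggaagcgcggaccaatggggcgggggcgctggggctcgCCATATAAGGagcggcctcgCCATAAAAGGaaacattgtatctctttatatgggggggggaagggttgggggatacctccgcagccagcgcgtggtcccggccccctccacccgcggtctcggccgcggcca
Btg2, chr1:134079106-134079405, minus strand: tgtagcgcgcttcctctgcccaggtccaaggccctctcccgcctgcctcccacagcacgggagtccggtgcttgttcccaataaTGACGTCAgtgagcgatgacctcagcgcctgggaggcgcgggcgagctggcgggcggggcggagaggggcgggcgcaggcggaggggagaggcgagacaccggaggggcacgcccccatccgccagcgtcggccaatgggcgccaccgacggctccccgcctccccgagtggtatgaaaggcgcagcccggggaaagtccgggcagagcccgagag
Plk2, chr13:110394794-110395093, plus strand: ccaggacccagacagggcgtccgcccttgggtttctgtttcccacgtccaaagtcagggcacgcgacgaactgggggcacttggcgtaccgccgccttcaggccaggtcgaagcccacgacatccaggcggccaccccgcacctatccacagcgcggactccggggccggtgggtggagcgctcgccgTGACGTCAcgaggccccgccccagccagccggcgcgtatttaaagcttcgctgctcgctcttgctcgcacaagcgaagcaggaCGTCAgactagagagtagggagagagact
Nr4a2, chr2:57123954-57124253, minus strand: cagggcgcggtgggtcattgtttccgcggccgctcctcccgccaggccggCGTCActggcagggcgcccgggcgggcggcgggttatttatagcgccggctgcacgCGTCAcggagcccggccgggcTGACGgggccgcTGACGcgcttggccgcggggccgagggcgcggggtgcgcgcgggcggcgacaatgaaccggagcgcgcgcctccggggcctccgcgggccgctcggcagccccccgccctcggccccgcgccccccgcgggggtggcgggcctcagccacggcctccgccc
Fos, chr12:85473640-85473939, plus strand: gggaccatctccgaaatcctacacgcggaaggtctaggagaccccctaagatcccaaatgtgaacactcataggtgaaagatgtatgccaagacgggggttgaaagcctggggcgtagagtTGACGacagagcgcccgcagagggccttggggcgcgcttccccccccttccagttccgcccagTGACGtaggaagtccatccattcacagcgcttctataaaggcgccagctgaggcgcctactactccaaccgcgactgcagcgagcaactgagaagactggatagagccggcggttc

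The Zfp36 promoter holds 1 CArG box and that of Srf holds 2. Btg2 and Plk2 each hold TGACGTCA. The promoter of Nr4a2 holds TGACG at 4 places and that of Fos at 2. Of the 34 genes, 27 had a promoter in the table, and motifs were sought on both strands at any listed start of a gene. A CArG box was found for 3 of 27 genes (11.1%), against 1.81% of all 27025 genes in the table. TGACGTCA was found for 3 of 27 (11.1%, against 2.03%), and TGACG, which every TGACGTCA contains, for 16 of 27 (59.3%, against 23.0%). GCGGGGGCG, an element bound by EGR proteins, was found for 6 of 27 (22.2%, against 3.31%). TGANTCA was found for 2 of 27 (7.41%, against 8.97%), in Csrnp1 and Zfp36l1. The Csrnp1 matches read TGAGTCA, the AP-1 element, and the Zfp36l1 match read TGATTCA, which is not. Shares with C or G alone at N were not counted. TATAAA, which a CArG box can contain, was found for 7 of 27 (25.9%, against 15.7%), and AAAGGTCA, an element bound by NR4A receptors, for 0 of 27 (against 1.70%). A match is a run of letters in this window and no measured binding.

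Levels are given as log2(signal + 16), quantile normalized, a scale whose floor is 4 and which understates differences of dim genes. Differences are the mean of the knockout-labelled arrays minus the mean of wild type, on that log2 scale. In RNA from mucosa, fewer cells of a type and less RNA per cell cannot be told apart. Of the 34 genes, 33 lay above the filter on low signals and were tested together with all other genes, 12437 in all. Only the Nr4a3 probe set was too dim. With limma, none of the 33 passed an adjusted p of 0.05, and over all genes tested the share called was 0%. At an unadjusted p under 0.05, limma gave 6 genes lower in the knockout-labelled arrays (Ier5, Btg2, Zfp36, Nr4a2, Atf3 and Junb) and none higher, where the background was 2.2% of all genes on the lower side and 1.74% on the higher side. The adjusted p of all 6 was 0.902. Over all 34 genes, filter or not, 22 had a lower mean (64.7%), against 48.8% of all genes with a probe set, and the median difference was -0.19, against 0.01 for all genes. Scaling mattered here. On the signals as deposited, where the median of all genes was 0.31, 11 of the 34 were lower (19.4% of all genes were), and with arrays centred on their medians 19 were (42.6% of all genes). The 11 genes that turned sign on the signals as deposited were Fos, Fosl2, Egr3, Klf6, Ier2, Ier3, Ier5l, Nr4a1, Btg1, Gadd45b and Sik1. With the Gapdh signal ratio described below in the model, a measure of RNA quality, 13 genes turned sign. They were Fosl1, Fosl2, Jun, Egr3, Klf2, Klf6, Klf10, Myc, Ier2, Btg1, Gadd45b, Plk2 and Plk3. This ratio was lower on every knockout-labelled array than on every wild-type array. With 6 arrays its part and that of the label therefore cannot be told apart, and values with it in the model are descriptions. Leaving out 1 array at a time gave 2 to 13 genes with an unadjusted p under 0.05 by limma. There were 2 without knockout-labelled A (2.15% of all genes tested had such a p) and 2 without wild type A (1.83%), 3 without knockout-labelled C (3.01%), 5 without knockout-labelled B (2.68%) or wild type C (3.79%), and 13 without wild type B (17.2%).

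The groups did not overlap for 4 of the 34 genes, Ier5, Ier5l, Nr4a2 and Btg2, each lower in the knockout-labelled arrays. Of all genes with a probe set, 4.79% were lower without overlap and 4.52% were higher without overlap, and no gene of the set was among the higher ones. With 3 arrays against 3, the smallest two-sided p that an exact permutation test can give is 0.1, and these 4 genes had it. These separations are on the normalized scale. On the signals as deposited, Ier5l, Nr4a2 and Btg2 overlapped, while Ier5 read 468 to 561 in the knockout-labelled arrays and 563 to 877 in wild type.

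**Figure D1:**
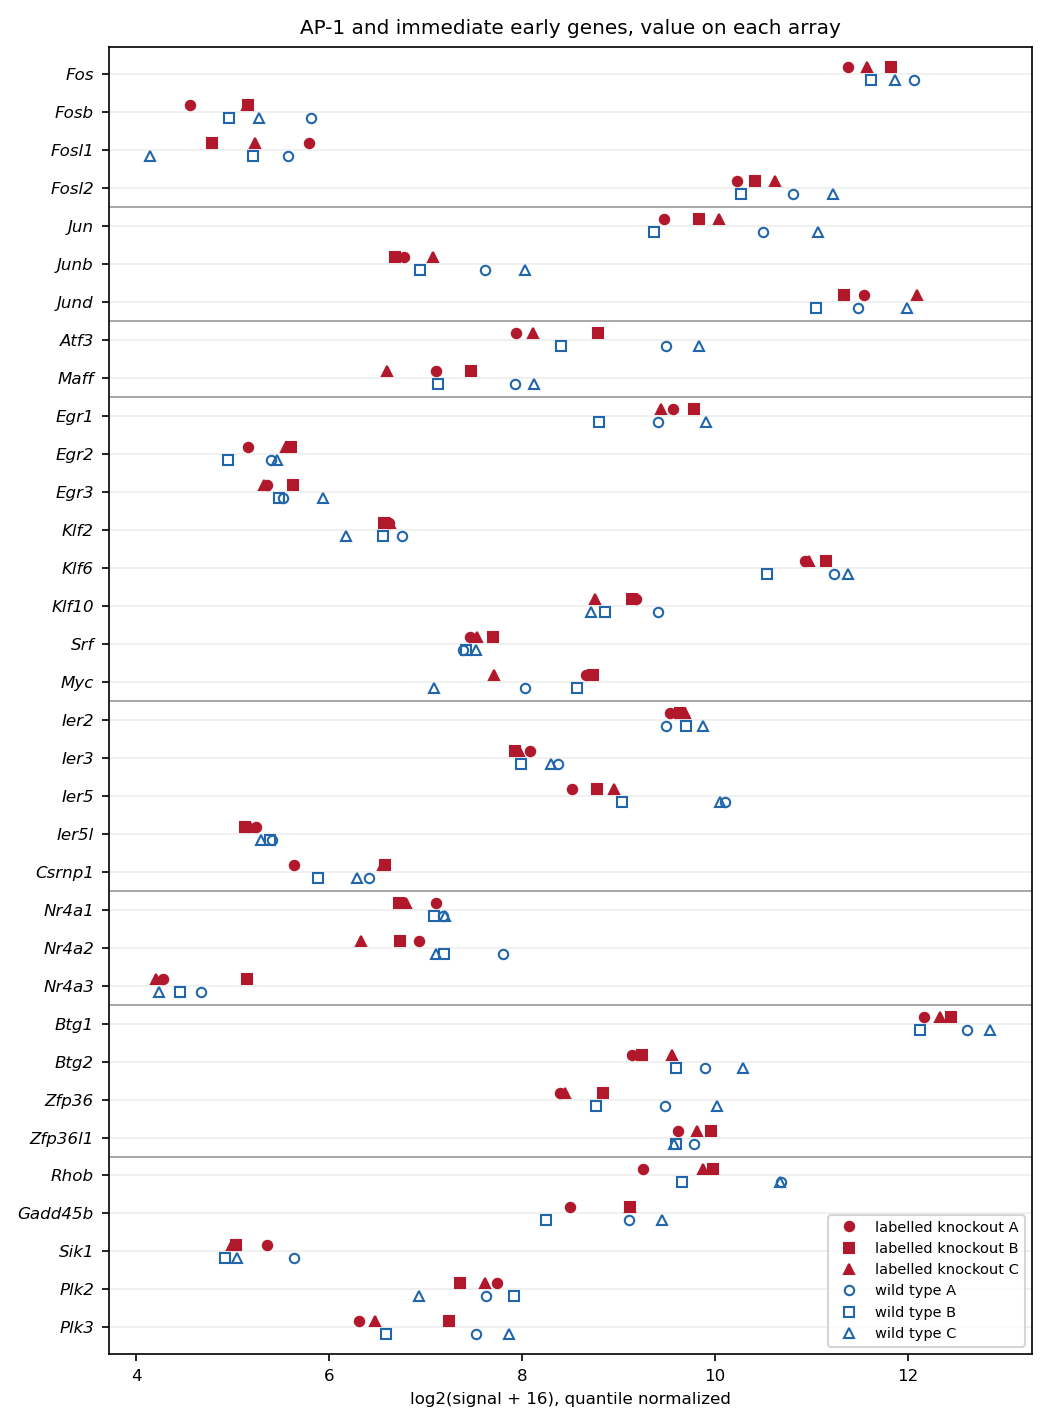
Value of each of the 34 genes on each array, as log2(signal + 16) after quantile normalization. Filled red symbols are the knockout-labelled arrays, open blue symbols wild type, with circles for A, squares for B and triangles for C. Lines separate groups of genes by role. For Ier5, Ier5l, Nr4a2 and Btg2 all red symbols lie left of all blue ones.

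The wild-type arrays were not alike. On the deposited signals the trimmed mean, which sets aside the extreme 2% at each end, was 192 to 222 in the knockout-labelled arrays, against 188 in wild type B and 117 to 141 in wild type A and C. Control probes for the 3′ end of Gapdh over those for its 5′ end gave a ratio that is higher in degraded RNA. It was 0.859 to 0.954 in the knockout-labelled arrays, 0.989 in wild type B, and 1.10 and 1.45 in wild type A and C. The same ratio for beta-actin was 1.82 to 2.27 in the knockout-labelled arrays and 2.24 in wild type B. Wild type A and C gave 2.40 and 3.25. By beta-actin the groups overlapped, and wild type C alone stood far from the rest. All 15 markers of colonic epithelium lay above the filter, with a summed signal of 104718 to 116508 in the knockout-labelled arrays and 96708 to 103813 in wild type. The direction turned on the normalized log2 scale, where 10 of the 15 were lower in the knockout-labelled arrays (median -0.05, 48.8% of all genes lower). Wild type A and C lay above wild type B for 13 of 15 (48.6% of all genes). Each gene is therefore given on every array, and the mean of the knockout-labelled arrays is set against wild type A and C and against wild type B separately.

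This split touched most of the set. The mean of the knockout-labelled arrays lay below the mean of wild type A and C for 26 of 34 genes (76.5%, against 48.3% of all genes). It lay below wild type B for 15 of 34 (44.1%, against 52.4% of all genes), and below both for 13 of 34 (38.2%, against 24.2%). Lower values by 0.5 or more against wild type A and C were seen for 12 genes (35.3%, against 9.23% of all genes), but against wild type B for Nr4a2 alone (2.94%, against 5.45%). Higher values by 0.5 or more against wild type B were seen for Egr1, Gadd45b and Jund (8.82%, against 5.16%). Wild type A and C lay above wild type B for 28 of 34 genes (82.4%, against 48.6% of all genes). The highest of the 6 arrays was wild type A or C for 25 genes (73.5%, against 39.98% of all genes), and the lowest was a knockout-labelled array for 18 (41.5% of all genes) and wild type B for 8 (15.5% of all genes). The part that RNA quality or brightness has in these differences was not tested. Values with the Gapdh ratio in the model are given for single genes, but that ratio also separates the groups.

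**Figure D2:**
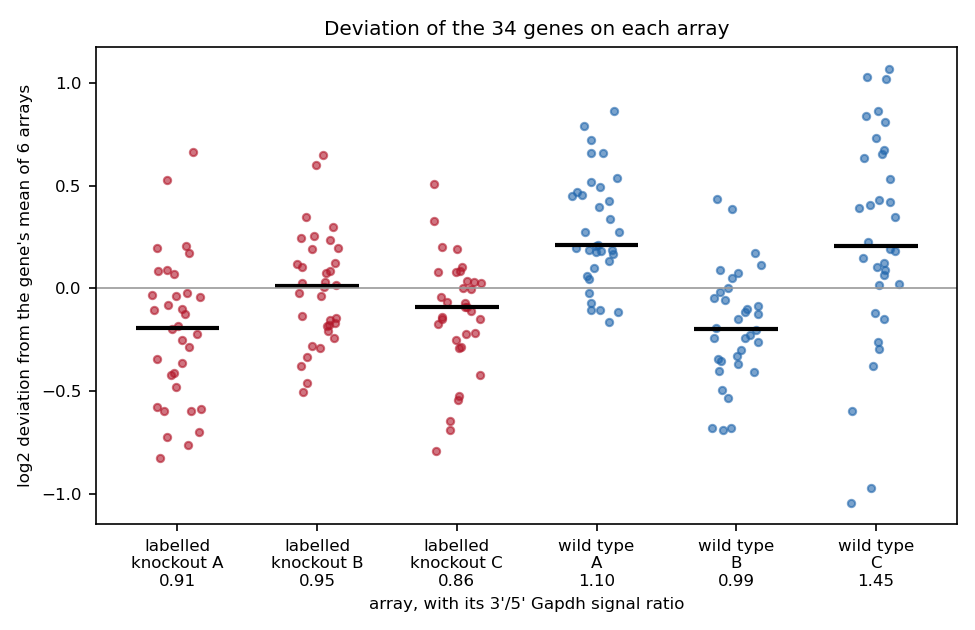
Deviation of each of the 34 genes from its own mean over the 6 arrays, on the log2 scale. Each dot is a gene, the bar is the median, and the number under each array is its 3′/5′ Gapdh signal ratio. The medians were -0.19, 0.01 and -0.09 in knockout-labelled A, B and C, and 0.21 in wild type A, -0.20 in B and 0.21 in C.

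Among the FOS family, Fos, the founding member of AP-1, read 11.38, 11.82 and 11.57 on knockout-labelled A, B and C and 12.06, 11.62 and 11.87 on wild type A, B and C. The highest knockout-labelled array lay above wild type B, so the groups overlapped. The difference was -0.26 (SE 0.16, limma adjusted p = 0.902), and -0.03 against wild type B. Fosl2, which encodes the FRA-2 subunit, read 10.23, 10.41 and 10.62 on the knockout-labelled arrays and 10.81, 10.27 and 11.23 in wild type. It was lowest on the knockout-labelled array A and on wild type B, and its other probe set differed by -0.27. Its difference was -0.34 (SE 0.24, limma adjusted p = 0.902) with all wild-type arrays, 0.16 against wild type B and 0.16 with the Gapdh ratio in the model. Fosb, read close to the floor, differed by -0.39 (SE 0.28) with values of 4.55 to 5.16 in the knockout-labelled arrays and 4.96 to 5.81 in wild type. Fosl1, which encodes FRA-1, had the other sign at 0.29 (SE 0.40), and its range in the knockout-labelled arrays, 4.79 to 5.79, lay inside that of wild type except at the top, 4.15 to 5.58. It too was read close to the floor. Its other probe set, below the filter, gave 0.18 with separate groups.

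The 3 JUN genes, whose products pair with FOS or with each other, had values of both signs. Junb read 6.78, 6.68 and 7.08 on knockout-labelled A, B and C, against 7.62, 6.95 and 8.03 on wild type A, B and C. All knockout-labelled arrays lay below wild type A and C, and only C lay above wild type B. The difference was -0.68 (SE 0.29, 1.61-fold lower, limma adjusted p = 0.902), with -0.98 against wild type A and C, -0.10 against wild type B and -0.15 with the Gapdh ratio in the model. Jun read 9.47, 9.84 and 10.04 on the knockout-labelled arrays, against 10.50, 9.36 and 11.06 in wild type. Wild type held both the lowest and the highest values, and the spread in wild type (SD 0.87, n = 3) was larger than that in the knockout-labelled arrays (SD 0.29, n = 3). The Jun difference of -0.53 (SE 0.39, limma adjusted p = 0.902) came apart into -0.999 against wild type A and C and 0.42 against wild type B, and it read 0.36 with the Gapdh ratio in the model. The second Jun probe set gave -0.57 with the same order of the wild-type arrays. Jund, which is expressed in resting cells more steadily than its relatives, read 11.55, 11.34 and 12.09 on the knockout-labelled arrays and 11.48, 11.05 and 11.99 in wild type, a difference of 0.16 (SE 0.27, limma adjusted p = 0.921), and 0.61 against wild type B.

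Atf3, a stress-induced factor of the ATF family that pairs with JUN proteins, read 7.94, 8.79 and 8.12 on the knockout-labelled arrays and 9.49, 8.41 and 9.83 on wild type A, B and C. The knockout-labelled array B stood above wild type B, and wild type A and C stood above all others. The difference was -0.96 (SE 0.38, 1.95-fold lower, limma adjusted p = 0.902), -1.38 against wild type A and C, the largest of the set, -0.13 against wild type B and -0.11 with the Gapdh ratio in the model. Maff, a small MAF protein that pairs with other leucine zipper factors, gave 7.06 ± 0.44 in the knockout-labelled arrays and 7.73 ± 0.53 in wild type (SD, n = 3 each). Its difference was -0.67 (SE 0.32), with -0.97 against wild type A and C, -0.07 against wild type B and -0.02 with the Gapdh ratio in the model.

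Of the 8 genes that encode EGR and KLF zinc finger factors, serum response factor and Myc, 2 had a lower mean (Egr3 and Klf6) and 6 a higher one, and none had an unadjusted p under 0.05 by limma. Egr1, which is induced by growth factors through serum response factor, read 9.57, 9.78 and 9.44 on the knockout-labelled arrays, against 9.41, 8.79 and 9.90 in wild type. The knockout-labelled arrays lay between wild type A and C and well above wild type B. The difference was 0.23 (SE 0.27, limma adjusted p = 0.902), 0.80 against wild type B, the largest such value of the set, and 0.90 with the Gapdh ratio in the model. Egr2 and Egr3, read close to the floor, differed by 0.17 (SE 0.23) and -0.21 (SE 0.21). Klf6, a factor induced by injury, read 10.94 to 11.16 in the knockout-labelled arrays and 10.54 to 11.38 in wild type, with differences of -0.03 from all wild-type arrays, -0.29 against wild type A and C and 0.48 against wild type B. Klf2, a factor of quiescent cells, and Klf10, which TGF-beta induces, differed by 0.11 (SE 0.21) and 0.03 (SE 0.22).

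Srf, which encodes serum response factor itself, read 7.46, 7.70 and 7.54 on the knockout-labelled arrays and 7.39, 7.42 and 7.52 in wild type. The 6 arrays lay close together, and the difference was 0.12 (SE 0.17, limma adjusted p = 0.906), with a 95% interval from -0.27 to 0.51. The suffix of its probe set marks possible cross-hybridisation, and its other probe set gave -0.13. Myc, the growth-promoting factor, was among the genes with the opposite order of wild-type arrays. It read 8.66, 8.73 and 7.71 on the knockout-labelled arrays and 8.03, 8.57 and 7.09 in wild type. Replicate C was the lowest array in both groups. The difference of 0.47 (SE 0.41, limma adjusted p = 0.902) was the highest of the set, with 0.81 against wild type A and C and -0.20 against wild type B, and it read -0.24 with the Gapdh ratio in the model.

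Ier5, an early response gene whose product has been tied to the heat shock factor HSF1, had the largest difference and the smallest p of the set. It read 8.52, 8.78 and 8.95 on knockout-labelled A, B and C, against 10.11, 9.04 and 10.05 on wild type A, B and C. All knockout-labelled arrays lay below all wild-type arrays, wild type B by the least. The difference was -0.98 (SE 0.29, 1.98-fold lower, limma adjusted p = 0.902, unadjusted p = 0.00971). It was -1.33 against wild type A and C, -0.29 against wild type B and -0.53 with the Gapdh ratio in the model, and leaving out 1 array at a time gave -1.33 to -0.80. A second Ier5 probe set gave -0.52, again with no overlap, and the remaining one, near the floor, gave -0.26 with overlap. With array weights, an alternative chosen after seeing the data, limma gave Ier5 an adjusted p of 0.0241 and Nr4a2 one of 0.0446, where 24.1% of all genes tested had an unadjusted p under 0.05. The related gene Ier5l also had no overlap, at 5.19 ± 0.06 in the knockout-labelled arrays and 5.36 ± 0.06 in wild type (SD, n = 3 each), a difference of -0.18 (SE 0.18) near the floor. Ier3, which protects cells from death under stress, differed by -0.23 (SE 0.18), and Ier2 by -0.07 (SE 0.16), with a 95% interval from -0.43 to 0.29. Csrnp1, an AXIN1-induced nuclear protein, differed by 0.06 (SE 0.30).

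The orphan nuclear receptors Nr4a1 and Nr4a2, ligand-independent early response factors, were lower on both sides of the wild-type split. Nr4a2 read 6.94, 6.74 and 6.33 on the knockout-labelled arrays, against 7.81, 7.19 and 7.11 in wild type. No knockout-labelled array reached the lowest wild-type array. The difference was -0.70 (SE 0.26, 1.63-fold lower, limma adjusted p = 0.902), with -0.79 against wild type A and C, -0.52 against wild type B and -0.80 with the Gapdh ratio in the model. The suffix of this probe set marks possible cross-hybridisation, and the other 5 Nr4a2 probe sets gave -0.91 to 0.02, all with overlap. Nr4a1 read 7.11, 6.73 and 6.80 on the knockout-labelled arrays and 7.19, 7.09 and 7.20 in wild type, a difference of -0.28 (SE 0.19, limma adjusted p = 0.902). The knockout-labelled array A just passed wild type B. Nr4a3 was not tested, and its values were 4.21 to 5.15 in the knockout-labelled arrays and 4.24 to 4.68 in wild type.

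Among genes that act on mRNA decay and growth arrest, 3 of 4 had a lower mean, Zfp36 and Btg2 by the most. Zfp36 encodes tristetraprolin, which binds AU-rich elements and speeds the decay of cytokine transcripts, and which p38 signalling is known to inactivate through MK2. It read 8.40, 8.84 and 8.45 on the knockout-labelled arrays, against 9.49, 8.77 and 10.02 in wild type. The knockout-labelled array B lay just above wild type B, and the other arrays did not overlap. The difference was -0.86 (SE 0.31, 1.82-fold lower, limma adjusted p = 0.902), with -1.19 against wild type A and C, -0.21 against wild type B and -0.10 with the Gapdh ratio in the model. Zfp36l1, its paralog, read 9.62 to 9.96 in the knockout-labelled arrays and 9.57 to 9.79 in wild type, a difference of 0.15 (SE 0.15). Btg2, an antiproliferative gene and p53 target, read 9.14, 9.24 and 9.55 on the knockout-labelled arrays, against 9.90, 9.60 and 10.29 in wild type. All knockout-labelled arrays were below all wild-type arrays, with C close to wild type B. The Btg2 difference was -0.62 (SE 0.21, 1.54-fold lower, limma adjusted p = 0.902), -0.78 against wild type A and C, -0.29 against wild type B and -0.27 with the Gapdh ratio in the model, and its other probe set gave -0.54 with overlap. Btg1 differed by -0.21 (SE 0.19), with wild type B the lowest array of all.

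Of the remaining signalling genes, Rhob, a small GTPase that stress induces, read 9.26, 9.98 and 9.88 on the knockout-labelled arrays, against 10.68, 9.66 and 10.68 in wild type. Wild type A and C were alike and above the other 4 arrays. The difference was -0.63 (SE 0.31, limma adjusted p = 0.902), with -0.98 against wild type A and C, 0.05 against wild type B and -0.13 with the Gapdh ratio in the model. Plk3, a stress-responsive polo-like kinase, read 6.31, 7.25 and 6.48 on the knockout-labelled arrays and 7.52, 6.60 and 7.87 in wild type, -0.65 (SE 0.37, limma adjusted p = 0.902) from all wild-type arrays, 0.08 against wild type B and 0.15 with the Gapdh ratio in the model. Its relative Plk2 differed by 0.08 (SE 0.27), and its highest array was wild type B, which was so for no other gene of the set. Gadd45b, a stress sensor upstream of p38 and JNK, differed by -0.02 (SE 0.32), with -0.37 against wild type A and C and 0.67 against wild type B. Sik1, a salt-inducible kinase, differed by -0.07 (SE 0.25).

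**Figure D3:**
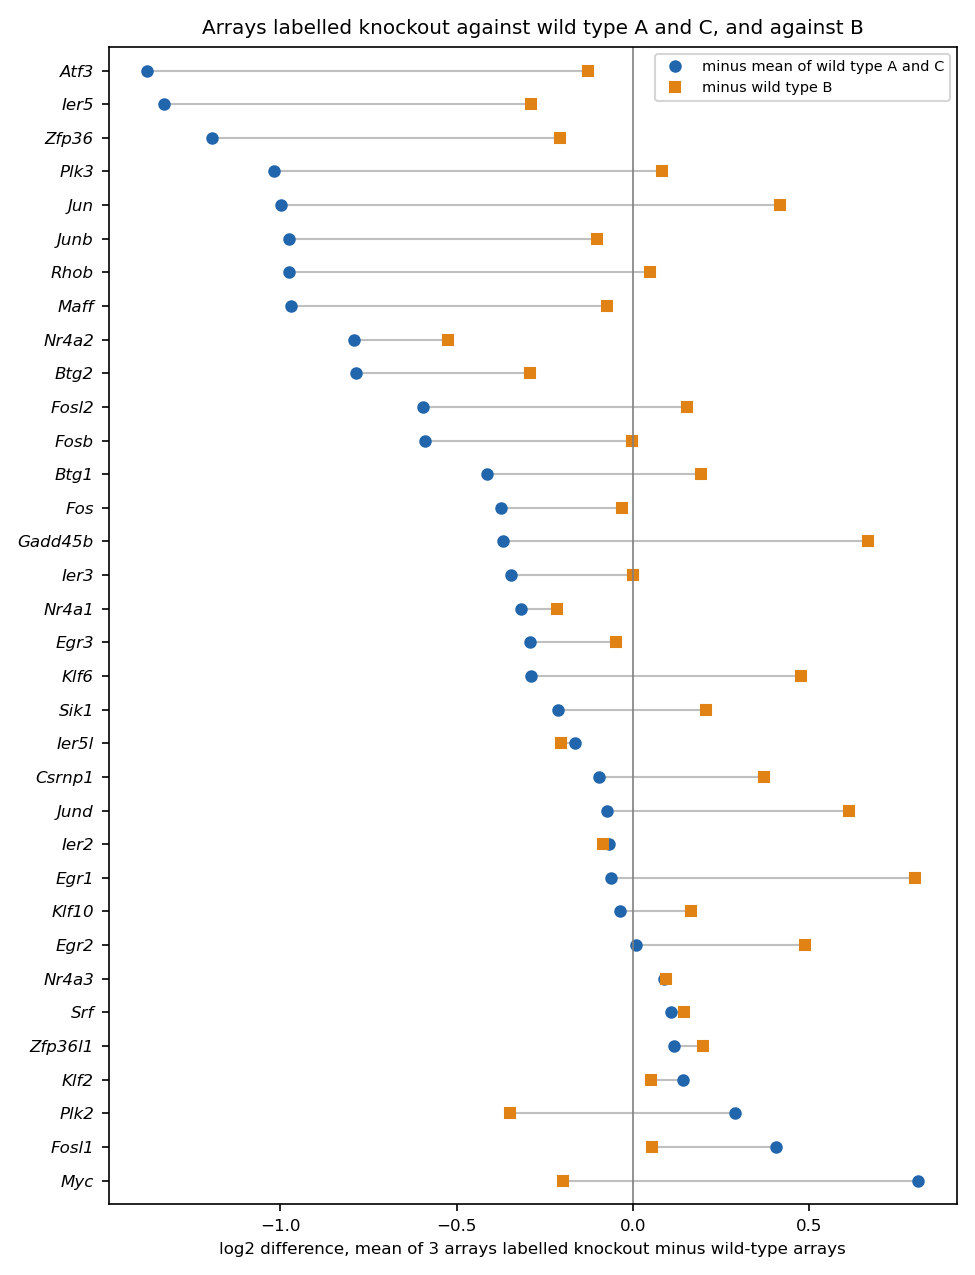
Log2 difference of the mean of the 3 knockout-labelled arrays from the mean of wild type A and C (blue circles) and from wild type B (orange squares), for each of the 34 genes, sorted by the first. Atf3 stood at -1.38 against wild type A and C and at -0.13 against B, Jun at -0.999 and 0.42, and Nr4a2 at -0.79 and -0.52.

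The genes that hold each element are given here by their difference between the groups, as a description. Of the 3 with a CArG box, Zfp36 stood at -0.86, Srf at 0.12 and Egr2 at 0.17. Of the 3 with TGACGTCA, Maff stood at -0.67, Btg2 at -0.62 and Plk2 at 0.08. Of the 16 with TGACG, which include Srf, Egr2 and the 3 with TGACGTCA, 10 had a lower mean and 6 a higher one. The whole set of 34 had 22 and 12. It also holds genes without a promoter in the table, so these counts are not like for like.

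Correlations of levels across the arrays are descriptions over 6 arrays that the genes share, with the scaling and RNA quality of each. Among 528 pairs of tested genes the median Pearson r was 0.31, against 0.007 over all pairs of genes tested. Of the 528 pairs, 30 had r above 0.9 (5.68%, against 2.84% of all pairs) and 2 had r under -0.9 (0.379%, against 2.53%), Fosl2 with Myc and Ier2 with Klf2. The closest were Fosl2 with Jun (r = 0.990), Atf3 with Plk3 (r = 0.983), Atf3 with Zfp36 (r = 0.981), and Jun with Btg1 (r = 0.971). Set against the median deviation of the other genes, Rhob (r = 0.96), Btg1 (r = 0.95), Plk3 (r = 0.94), Atf3 (r = 0.93) and Jun (r = 0.91) were most alike. Plk2 (r = -0.74), Myc (r = -0.66) and Fosl1 (r = -0.52, read close to the floor) ran the other way. Each of those 3 was lowest on wild type C, where the Gapdh ratio was highest. Wild type C was the lowest array for 6 genes of the set, those 3 among them, and for 27.98% of all genes. It was the highest array for 15 genes of the set and for 28.00% of all genes. Being lowest there was therefore not particular to those 3, and a link to the Gapdh ratio was not tested.

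**Figure D4:**
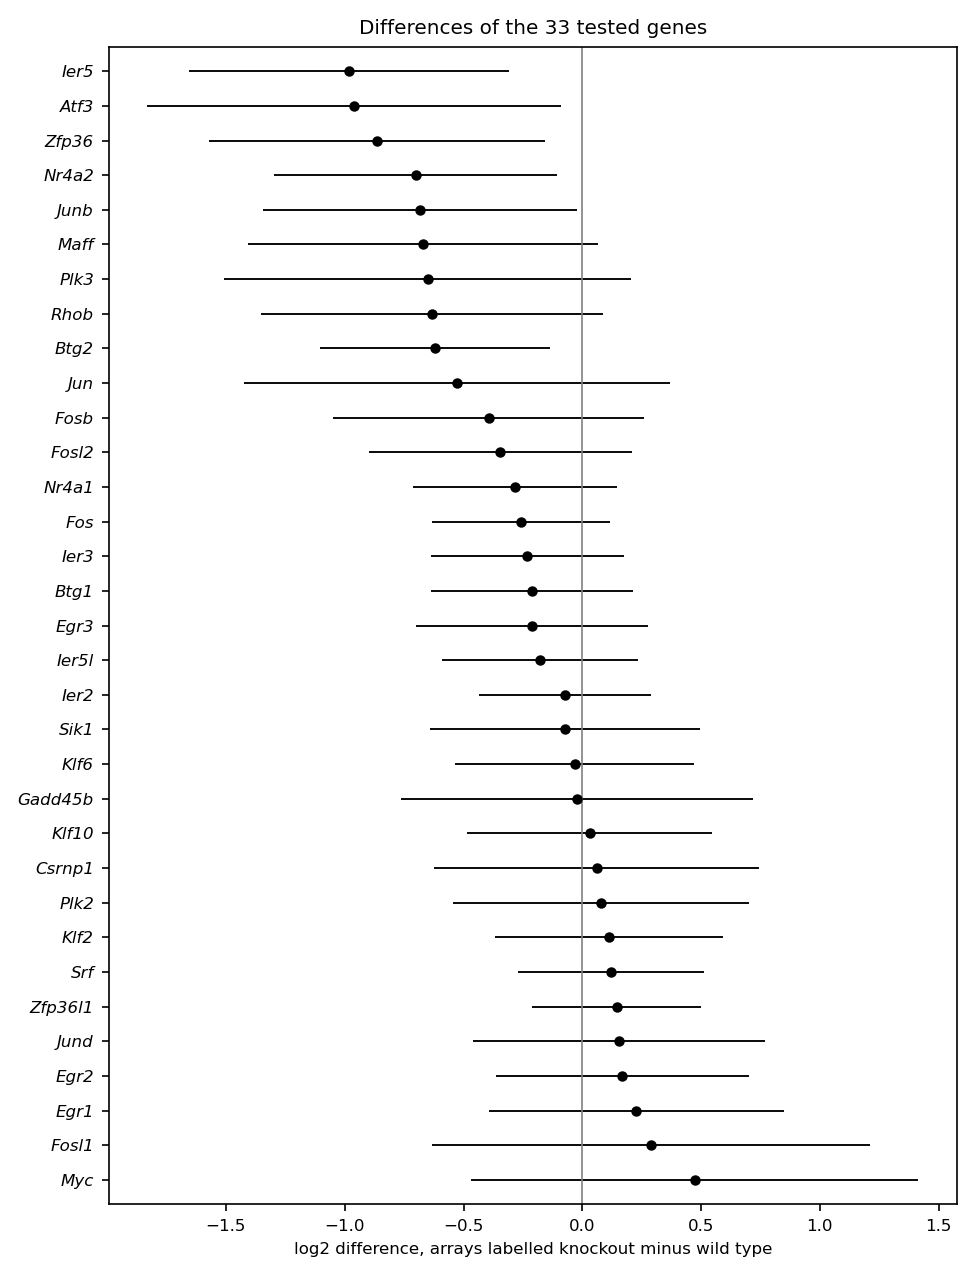
Log2 difference between the knockout-labelled arrays and wild type for the 33 tested genes, with the 95% interval from limma. The intervals of Ier5, Atf3, Zfp36, Nr4a2, Btg2 and Junb lie below 0 before any adjustment for multiple tests, and after adjustment no gene passes.

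Other genes of the pathway were counted by list. Of 42 further early response genes with a probe set, 27 were lower and 15 higher, with a median difference of -0.14. Over all genes with a probe set, 48.8% were lower. Of the 38 tested, limma called none. At an unadjusted p under 0.05 by limma, 5 were lower (2.2% of all genes tested were) and 1 was higher (1.74%). Nfil3, a leucine zipper repressor, differed by -1.10 (SE 0.31), Dusp6, a phosphatase of ERK, by -0.55 (SE 0.19), and Gadd45a, a relative of Gadd45b, by 0.54 (SE 0.17), each with separate groups and a limma adjusted p of 0.902. On this list 4 genes were lower without overlap and 1 was higher, against 4.79% and 4.52% of all genes. The mean of the knockout-labelled arrays lay below wild type A and C for 29 of the 42 (48.3% of all genes). It lay below wild type B for 13 (52.4% of all genes). Of 16 kinases upstream of early genes, 9 were lower and 7 higher, with Map2k6, an activator of p38, at 0.84 (SE 0.25), Mapk14 at 0.41 (SE 0.14) and Mapk12 at -0.55 (SE 0.41). Of 10 other leucine zipper partners 6 were lower, with Mafk at -0.59 (SE 0.28), Mafg at -0.33 (SE 0.22) and Atf7 at 0.51 (SE 0.21). Of 7 activators of early promoters 3 were lower, and Creb1, Elk3 and Ep300 gave 0.23 (SE 0.20), 0.15 (SE 0.21) and -0.19 (SE 0.20). limma called none of the genes on these 3 lists.

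Of 15 known AP-1 targets with a probe set 9 were lower and 6 higher, 8 were tested, and none was called. Ereg, an EGF family ligand of the epithelium, read 6.62 ± 0.41 in the knockout-labelled arrays and 5.85 ± 0.20 in wild type (SD, n = 3 each), a difference of 0.77 (SE 0.25, limma adjusted p = 0.902) with separate groups. No other gene of the 15 had separate groups, and 4.52% of all genes were higher without overlap. Plaur, the urokinase receptor gene, gave -0.56 (SE 0.31) and Tgfb1 0.33 (SE 0.23). Of 12 heat shock genes, which stress also induces, 6 were lower and 6 higher. Wild type A and C lay above wild type B for 2 of the 12, against 28 of 34 for the early response set (48.6% of all genes). Hspd1, Hspa8 and Hspb1 gave 0.35 (SE 0.38), 0.21 (SE 0.24) and -0.27 (SE 0.20), and none of the 12 was called.

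Markers of several types of immune cell, which express early genes too, differed between the same wild-type arrays, as did the epithelial markers above. Of all genes with a probe set, 48.6% were higher in wild type A and C than in wild type B. Of the same genes, 48.8% had a lower mean in the knockout-labelled arrays. All 8 T cell markers had a lower mean in the knockout-labelled arrays. They were higher in wild type A and C than in wild type B for 7 of 8 genes, and their summed deposited signal was 355 to 706 in the knockout-labelled arrays and 355 to 937 in wild type, where B was lowest, with Cd2 and Cd4 below the filter. Markers of B and plasma cells were higher in wild type A and C than in B for 6 of 6 genes, with sums of 1286 to 4337 in the knockout-labelled arrays and 630 to 3559 in wild type, where B was lowest and Cd79a lay below the filter. Markers of macrophages and dendritic cells were higher for 8 of 9 genes, with sums of 1688 to 2067 in the knockout-labelled arrays and 981 to 1773 in wild type, where B was highest, and with Itgam, Cx3cr1 and Cd163 below the filter. Neutrophil markers were higher in wild type A and C than in B for 3 of 5 genes, with Mpo and Cxcr2 below the filter. Of these 5, 4 had a higher mean in the knockout-labelled arrays (median 0.29). Mast cell markers were higher in wild type A and C than in B for 5 of 6 genes, with Mcpt4 and Tpsb2 below the filter. Smooth muscle had 7 markers, of which Myh11 and Cnn1 lay below the filter. They summed to 333 to 873 in the knockout-labelled arrays and 193 to 263 in wild type. On the normalized scale 6 of the 7 had a higher mean in the knockout-labelled arrays, 2 of them without overlap (4.52% of all genes). The median difference was 0.71, with 0.72 against wild type B and 0.68 against wild type A and C. The 6 pancreatic acinar markers, 4 of them below the filter, averaged 5.61 to 5.75 on the log2 scale in the knockout-labelled arrays, and 7.45 in wild type B against 5.64 and 5.67 in wild type A and C. Their summed deposited signal was 2161 to 2735 in the knockout-labelled arrays and 1021 to 2516 in wild type. By that sum wild type B, at 2516, lay within the knockout-labelled range. The part of these cells in the values of the early genes was not tested.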

How the data were processed

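RNA from colonic mucosa was extracted with Trizol, cleaned on a column and labelled for Affymetrix 3′ expression arrays, per the labels' protocols. The authors deposited 1 linear intensity per probe set and array, made by MAS5, per the submitters' processing notes. Its version and scaling were not given in the sources used here. Array means differ, so no common scaling is visible in them.

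Intensities of 45101 probe sets were taken as log2(signal + 16), quantile normalized, and named from the platform annotation (34945 probe sets with 1 symbol, 932 with several, 9160 with none here). The brightest probe set of each gene was kept. Genes with a mean under the 40th percentile of all probe sets were not tested. Groups were compared with limma 3.58.1 in R 4.3.3 (lmFit, eBayes with trend), with Benjamini-Hochberg adjustment over all genes tested, and single genes with exact permutation tests over arrays. The steps were tested on simulated data. No list was tested as a set. All 34 genes were named, with the 3 smallest p-values of each further pathway list. The genes and lists were chosen with earlier results of these data known, and genes singled out by the wild-type split or as most alike were picked after their values were seen. The arrays' number limits the precision.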

Additional observations from a re-analysis of the deposited data

How the results depend on the processing

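No gene of the set was called under other scalings, pseudocounts of 1 and 64, no filter or one at the 60th percentile, probe sets averaged per gene, other eBayes priors, the replicate block, 1 array left out in turn, the Gapdh ratio in the model, and wild type B alone as control, its spread assumed to equal that of the others. The default array weights could not be fitted because the estimate did not converge. The gene-by-gene method, chosen after seeing the data, gave wild type A a weight of 4.59 against 0.391 and 0.310 for wild type B and C. With it limma called 171 genes, 2 of them of the set, Ier5 at -1.28 (adjusted p = 0.0241) and Nr4a2 at -1.003 (adjusted p = 0.0446), and 16 of the set had an unadjusted p under 0.05 (24.1% of all genes tested did). Over all genes limma called 1 on the signals as deposited, 1 with arrays centred on their medians, 1 with a pseudocount of 64 and 1 with wild type B alone as control, against 0.

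On the signals as deposited 11 genes of the set were lower and their median was 0.16, where the median of all genes was 0.31. With wild type B alone as control it was 0.052, above that of all genes, -0.01. Of the 6 genes with an unadjusted p under 0.05, 2 were left with centred arrays (Ier5 and Zfp36; 3.9% of all genes tested had such a p). There were 2 with the Gapdh ratio (Egr1 higher, Plk2 lower; 3.73% of all) and 2 with wild type B alone (Egr1 and Klf6, both higher; 3% of all). Leaving out 1 array gave 2 to 13 such genes, 19 to 26 lower genes, a median of -0.30 to -0.14, and 0 to 6 genes called over all. The 13 came without wild type B, when 17.2% of all genes tested had such a p, and 2, 3 and 2 came without the knockout-labelled arrays A or C and without wild type A. The letters share only a letter (correlation of deviations -0.04, -0.11 and 0.45 for A, B and C; C alone was closest to its own letter), and with the replicate block limma called 3 genes, none of the set, and 7 of the set had an unadjusted p under 0.05 (5.56% of all genes tested did), the added one being Myc, higher. Of 646 values of single genes under these settings 570 moved by less than 1 SD between replicates, 74 by more, and 2 gained a call. The 570 include values under other filters, other eBayes priors and the replicate block, which cannot change a difference, so that count overstates stability. By sign, 13 genes turned with the Gapdh ratio in the model and 11 on the signals as deposited.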
